A study of Homo sapiens with 6 samples.

Results

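Mitochondria make few of their own proteins and import the rest from the cytosol. The genes described here encode 10 of the proteins that bring precursors in, fold them or destroy them: the chaperones HSPD1, HSPE1, HSPA9 and TRAP1, the matrix proteases LONP1 and CLPP, the outer membrane import subunits TOMM20, TOMM22 and TOMM7, and the inner membrane channel TIMM23. They were chosen by symbol, matched to Ensembl identifiers, and all 10 were found among the 57500 genes counted. The RNA came from mitochondria that had been purified with a kit out of wild-type HepG2, a line established from a human liver tumour. Before harvest the cells spent 48 h with GenX, an industrial fluorinated ether acid, at 0 µM (DMSO solvent only, the control), 10 µM or 100 µM. Each dose had 2 libraries, making 6, and whether these were separate cultures is not stated, so the p-values speak of differences among these libraries alone, which may be technical. The design asks how RNA in isolated mitochondria differs between doses.

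A precursor protein is recognised at the outer membrane by the receptors TOMM20 and TOMM22, passes the TOM pore, which the small subunit TOMM7 helps to assemble, and enters the matrix through TIMM23. HSPA9, the mitochondrial Hsp70 also called mortalin, pulls it inward, and HSPD1 (Hsp60) with its lid HSPE1 (Hsp10) folds it. TRAP1 is the mitochondrial Hsp90, and LONP1 and CLPP degrade damaged matrix proteins. All of these genes are transcribed in the nucleus, and chaperone and protease genes of this kind are known as targets of the mitochondrial unfolded protein response.

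Levels are given as CPM, the usual depth-scaled count, with all counts as denominator, or as nuclear CPM, the same scale with the counts of mitochondrial DNA (mtDNA) genes left out of the denominator. The mtDNA genes took 4.35% and 10.4% of all counts in control libraries, 43.7% and 61.1% with 10 µM, and 3.58% and 3.32% with 100 µM. Nuclear-gene counts were 230210 and 54502 in control libraries, 24505 and 11406 with 10 µM, and 2064527 and 1293961 at 100 µM. A single count was therefore worth 4.34 and 18.3 nuclear CPM in control libraries, 40.8 and 87.7 with 10 µM, and 0.484 and 0.773 at 100 µM. A gene at 0 may still have reached the level of 3 counts, which was 13.03 and 55.04 in control libraries, 122 and 263 with 10 µM, and 1.45 and 2.32 at 100 µM. All such intervals and limits reflect counting error alone. The nuclear-retained RNA MALAT1 held 13.5% and 4.61% of all counts in control libraries, 0.0390% and 0.0443% with 10 µM, and 2.88% and 2.60% at 100 µM. Hepatocyte markers, 10 in all, summed to 6260 and 15669 nuclear CPM in control libraries, 775 and 351 with 10 µM, and 11443 and 11173 at 100 µM. Of 4 immune cell markers, PTPRC, CD3E and CD68 were at 0 in all 6 libraries and LYZ had counts in each. Of 3 endothelial markers, CDH5 was at 0 in all 6, VWF had 4 counts in control 2 alone and PECAM1 had 2 in 100 µM replicate 2 alone. Of 4 fibroblast markers, COL1A1 had counts in each library and COL1A2, PDGFRB and DCN at most 3 in any. In bulk RNA, fewer cells and less RNA per cell cannot be told apart, and the part of depth and of nuclear RNA in the values that follow was not tested.

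The 10 genes together held 247 and 29 counts in control libraries, 12 and 6 with 10 µM, and 5907 and 3668 at 100 µM. That was 1073 (95% Poisson interval 943 to 1215) and 532 (356 to 764) nuclear CPM in control libraries, 489.7 (253 to 855) and 526 (193 to 1145) with 10 µM, and 2861 (2789 to 2935) and 2835 (2744 to 2928) at 100 µM. The sum averaged 803 ± 382 in control libraries, 508 ± 25.7 with 10 µM and 2848 ± 18.7 at 100 µM (SD, n = 2 each). Both 100 µM libraries lay above the other 4, and the 10 µM libraries lay below both controls, though within the counting interval of control 2. A single gene, HSPE1, held 167 of the 247 counts of control 1. Without HSPE1 the sums were 348 and 495 in control libraries, 489.7 and 438 with 10 µM, and 2334 and 2282 at 100 µM, and the 10 µM libraries then overlapped the controls. Pooled over libraries, the 100 µM share of all 10 genes was 2.94 times the control share (95% counting interval 2.61 to 3.33). That of the other 9 genes, an alternative chosen after seeing the data, was 6.16 times (5.09 to 7.52), and that of HSPE1 0.904 times (0.772 to 1.07). These intervals leave out the difference between replicates.

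**Figure D1:**
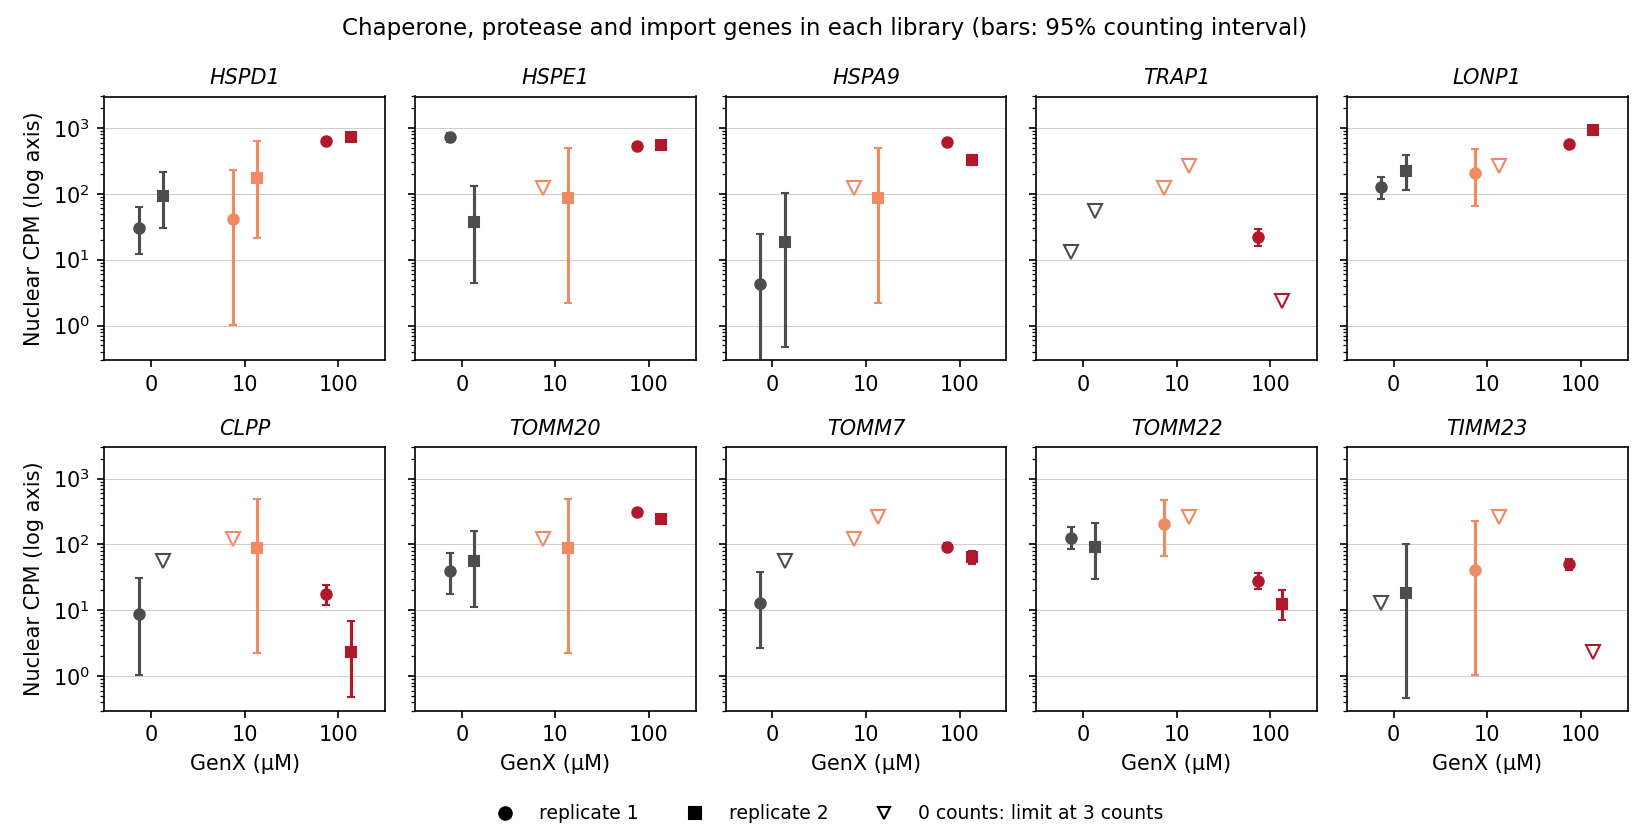
Level of each of the 10 genes in each library, in nuclear CPM on a log axis, against GenX dose, with circles for replicate 1, squares for replicate 2, bars for 95% counting intervals and open triangles for the limit of 3 counts where a gene had none. HSPD1, HSPA9, LONP1 and TOMM20 are higher in both 100 µM libraries than in both controls, HSPE1 is highest in control 1 with 167 counts, and TOMM22 is lower in both 100 µM libraries than in both controls.

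The chaperonin pair HSPD1 and HSPE1 is encoded head to head on chromosome 2. In the deposited tables (GRCh38) HSPD1 (ENSG00000144381) spans 197486581 to 197516737 on the minus strand and HSPE1 (ENSG00000115541) spans 197499994 to 197503457 on the plus strand, inside the span of HSPD1. RefSeq places the start of HSPE1 105 bases from one HSPD1 start and 539 bases from another. The 250 bases before the HSPE1 start, on the plus strand at chr2:197500129-197500378 (RefSeq, GRCh38.p14), are shown because they also hold the nearer HSPD1 start, at 197500274. Both genes are read outward from the bases between these starts. The other HSPD1 start, at 197499840, lies outside the printed stretch. The capitals mark a match, read on the opposite strand, to the palindromic recognition sequence of NRF-1, a factor known for nuclear genes of mitochondria.
HSPE1: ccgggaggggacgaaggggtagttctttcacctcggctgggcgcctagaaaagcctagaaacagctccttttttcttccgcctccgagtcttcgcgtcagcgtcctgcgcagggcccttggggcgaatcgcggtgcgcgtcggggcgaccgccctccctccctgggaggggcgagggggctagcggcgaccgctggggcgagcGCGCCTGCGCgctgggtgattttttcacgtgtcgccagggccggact
The same 10 bases, 197500332 to 197500341, form the match in the HSPD1 window that starts at 197500225.

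HSPD1, the Hsp60 subunit that forms the folding chamber, had 7 and 5 counts in control libraries, 1 and 2 with 10 µM, and 1327 and 931 at 100 µM. This was 30.4 and 91.7 nuclear CPM in control libraries, 40.8 and 175 with 10 µM, and 643 and 719 at 100 µM. Both 100 µM libraries were above the other 4, while 10 µM and control libraries overlapped. HSPE1, the lid of that chamber, had 167 and 2 counts in control libraries, 0 and 1 with 10 µM, and 1088 and 715 at 100 µM. Its level was 725 (95% Poisson interval 620 to 844) nuclear CPM in control 1, against 36.7 (4.44 to 133) in control 2, so the controls differed beyond counting error and lay on both sides of the 100 µM libraries at 527 and 553.

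Relative to each other, the chaperonin genes were close to even at 100 µM. HSPD1 took 54.9% (95% exact binomial interval 52.9 to 56.9) and 56.6% (54.1 to 59.0) of the counts on the pair at 100 µM, against 4.02% (1.63 to 8.11) and 71.4% (29.04 to 96.3) in control libraries. Control 1 thus stood apart from control 2 and from both 100 µM libraries. The 10 µM libraries held 1 and 3 counts on the pair, too few for a share. HSPE1 and HSPD1 overlap on opposite strands, and the strand setting of the counting is not given in the sources used here, so reads of one could have been lost or given to the other. The read-through gene HSPE1-MOB4 held 1 count in all, and MOB4, which overlaps HSPD1 on the opposite strand, held 55 and 0 counts in control libraries, 0 with 10 µM, and 80 and 0 with 100 µM. Annotated copies of HSPD1 numbered 17, with 165 counts over all libraries, of which HSPD1P10 on chromosome 6 had 38 and 85 counts and HSPD1P11 on chromosome 5 had 31 and 0 at 100 µM. Copies of HSPE1 numbered 26, with 58 counts, 41 and 2 of them on HSPE1P2 at 100 µM, so reads could have been split between these genes and their copies.

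HSPA9 (ENSG00000113013, chromosome 5, GRCh38 138554882 to 138575444, minus strand), the motor of the inner membrane channel, had 1 count in each control, 0 and 1 with 10 µM, and 1255 and 427 at 100 µM. This was 4.34 and 18.3 nuclear CPM in control libraries, below the limit of 122 and at 87.7 with 10 µM, and 608 and 330.0 at 100 µM. Pooled over libraries, the 100 µM share was 71.3 times the control share (95% counting interval 19.7 to 589), a ratio that rests on 2 control counts. TRAP1 (ENSG00000126602, chromosome 16, GRCh38 3651639 to 3717597, minus strand) had 46 counts in 100 µM replicate 1 and 0 in each of the other 5 libraries. Its level there was 22.3 nuclear CPM (16.3 to 29.7), above the limit of 2.32 in 100 µM replicate 2 and of 13.03 in control 1. At 10 µM and in control 2 a level like that of 100 µM replicate 1 was not detectable at this depth. AC006111.2, which overlaps TRAP1 on the same strand, held 76 counts in 100 µM replicate 2 and 0 elsewhere, and DNASE1, on the opposite strand, held 32 and 72 at 100 µM and 12 and 0 in control libraries.

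The matrix proteases differed from each other. LONP1, which degrades oxidised and misfolded matrix proteins, had 29 and 12 counts in control libraries, 5 and 0 with 10 µM, and 1172 and 1185 at 100 µM. This was 126 and 220.2 nuclear CPM in control libraries, 204 and below the limit of 263 with 10 µM, and 568 and 916 at 100 µM. Both 100 µM libraries were above both controls, and the pooled 100 µM share was 4.87 times the control share (95% counting interval 3.58 to 6.81). CLPP (ENSG00000125656, chromosome 19, GRCh38 6361452 to 6368908, plus strand), the proteolytic core of the ClpXP protease, had 2 and 0 counts in control libraries, 0 and 1 with 10 µM, and 36 and 3 at 100 µM. Its 100 µM levels of 17.4 (12.2 to 24.1) and 2.32 (0.478 to 6.78) nuclear CPM differed beyond counting error, and control 1 at 8.69 lay between them. On chromosome 19, LONP1 (ENSG00000196365, GRCh38 5691834 to 5720572, minus strand) overlaps RPL36 on the plus strand, which held 108 and 45 counts in control libraries, 0 with 10 µM, and 562 and 469 at 100 µM.

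Of the outer membrane import genes, TOMM20 was higher and TOMM22 lower in both 100 µM libraries than in both controls. The 250 bases before their RefSeq starts (GRCh38.p14) are shown because of that contrast, with matches to the 6 motifs searched in capitals, at chr1:235128838-235129087 on the minus strand for TOMM20 and chr22:38681707-38681956 on the plus strand for TOMM22.
TOMM20: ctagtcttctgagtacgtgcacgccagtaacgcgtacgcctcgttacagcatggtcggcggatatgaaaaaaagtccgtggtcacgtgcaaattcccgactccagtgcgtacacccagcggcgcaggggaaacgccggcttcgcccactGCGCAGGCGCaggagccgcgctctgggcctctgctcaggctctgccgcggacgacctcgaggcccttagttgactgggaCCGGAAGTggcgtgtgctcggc
TOMM22: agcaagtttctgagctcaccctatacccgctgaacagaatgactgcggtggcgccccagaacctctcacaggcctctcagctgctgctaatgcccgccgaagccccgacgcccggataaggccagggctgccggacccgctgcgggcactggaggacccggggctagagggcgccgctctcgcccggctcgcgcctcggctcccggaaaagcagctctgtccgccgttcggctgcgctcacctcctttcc
The first capitals in TOMM20 are an NRF-1 match and the second the letters CCGGAAGT, the core bound by ETS factors.

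TOMM20 (ENSG00000173726, chromosome 1, GRCh38 235109336 to 235128936, minus strand), the receptor for presequences, had 9 and 3 counts in control libraries, 0 and 1 with 10 µM, and 633 and 309 at 100 µM. Its level was 39.1 and 55.04 nuclear CPM in control libraries, below the limit of 122 and at 87.7 with 10 µM, and 307 and 239 at 100 µM. The pooled 100 µM share was 6.65 times the control share (95% counting interval 3.79 to 12.9). TOMM22 (ENSG00000100216, chromosome 22, GRCh38 38681948 to 38685421, plus strand), the central receptor that holds the complex together, had 29 and 5 counts in control libraries, 5 and 0 with 10 µM, and 58 and 16 at 100 µM. Its level was 126 and 91.7 nuclear CPM in control libraries, 204 and below the limit of 263 with 10 µM, and 28.1 and 12.4 at 100 µM. Both 100 µM libraries were below both controls, and the pooled 100 µM share was 0.185 times the control share (0.121 to 0.286), which made TOMM22 the only one of the 10 genes with a pooled interval below 1 in this comparison. The small subunit TOMM7 (ENSG00000196683, chromosome 7, GRCh38 22812628 to 22822852, minus strand) had 3 and 0 counts in control libraries, 0 in both 10 µM libraries, and 189 and 82 at 100 µM, and its 100 µM levels of 91.5 and 63.4 were above the control limit of 55.04 and the control value of 13.03.

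TIMM23, the channel for presequence proteins, lies on chromosome 10 (ENSG00000265354, GRCh38 45972449 to 46003734, plus strand). It had 0 and 1 counts in control libraries, 1 and 0 with 10 µM, and 103 and 0 at 100 µM. The level in 100 µM replicate 1 was 49.9 nuclear CPM (95% Poisson interval 40.7 to 60.5) and the limit in replicate 2 was 2.32, so the 100 µM libraries differed beyond counting error. TIMM23 has a near-identical copy, TIMM23B, which held 0 counts. TRAP1 and CLPP also had more counts in 100 µM replicate 1 than their replicate 2 level allowed. CLPP had no RefSeq window.

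The NRF-1 sequence was found, on either strand, in 5 of the 11 windows of the 9 genes with a RefSeq window. These 5 belonged to HSPD1, HSPE1, LONP1, TOMM20 and TOMM7. Each window ran from 250 bases before to 50 after a start. HSPD1 and HSPE1 share 1 match. Of 35116 such windows in the genome table, not matched for base composition, 5.78% held it. Heat shock elements, searched as TTCNNGAA and GAANNTTC on both strands, overlapped each other in the second HSPD1 window, at 197500068 to 197500085, and TTCNNGAA also lay in the HSPA9 window. TTCNNGAA was in 7.74% and GAANNTTC in 6.77% of all windows. TGACGTCA, the cyclic AMP response element, was in the TRAP1 window and in 1.85% of all windows, and CCGGAAGT was in that of TOMM20 and in 4.14%. TGATGNAA, a composite site of ATF4, was in none of the 11 windows of these genes and in 3.62% of all. A match describes letters in a window and is not evidence of binding.

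Per kilobase of exon, the order of mean levels at 100 µM was HSPE1 (273 nuclear CPM per kilobase), HSPD1 (160.5), LONP1 (146), HSPA9 (98.7), TOMM20 (77.0), TOMM7 (44.2), TIMM23 (20.4), TOMM22 (9.23), CLPP (4.34) and TRAP1 (2.13). HSPE1 was above every other of the 10 genes in both libraries. The libraries of neighbours in this order overlapped, so that their order did not exceed the spread, except between HSPE1 and HSPD1 and between TOMM20 and TOMM7. In control libraries the highest means per kilobase were 193 for HSPE1, 49.7 for TOMM22, 34.0 for LONP1 and 14.4 for HSPD1. Among nuclear protein-coding genes with a count, ranked per kilobase, HSPD1 was 289 of 10706 and 264 of 9473 at 100 µM, against 2554 of 7240 and 1307 of 4493 in control libraries. HSPA9 was at rank 344 and 699 at 100 µM, against 6189 and 3513 in control libraries, where each rank rests on 1 count. TOMM22 ran the other way, at 3000 and 4527 at 100 µM, against 646 and 791 in control libraries.

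**Figure D2:**
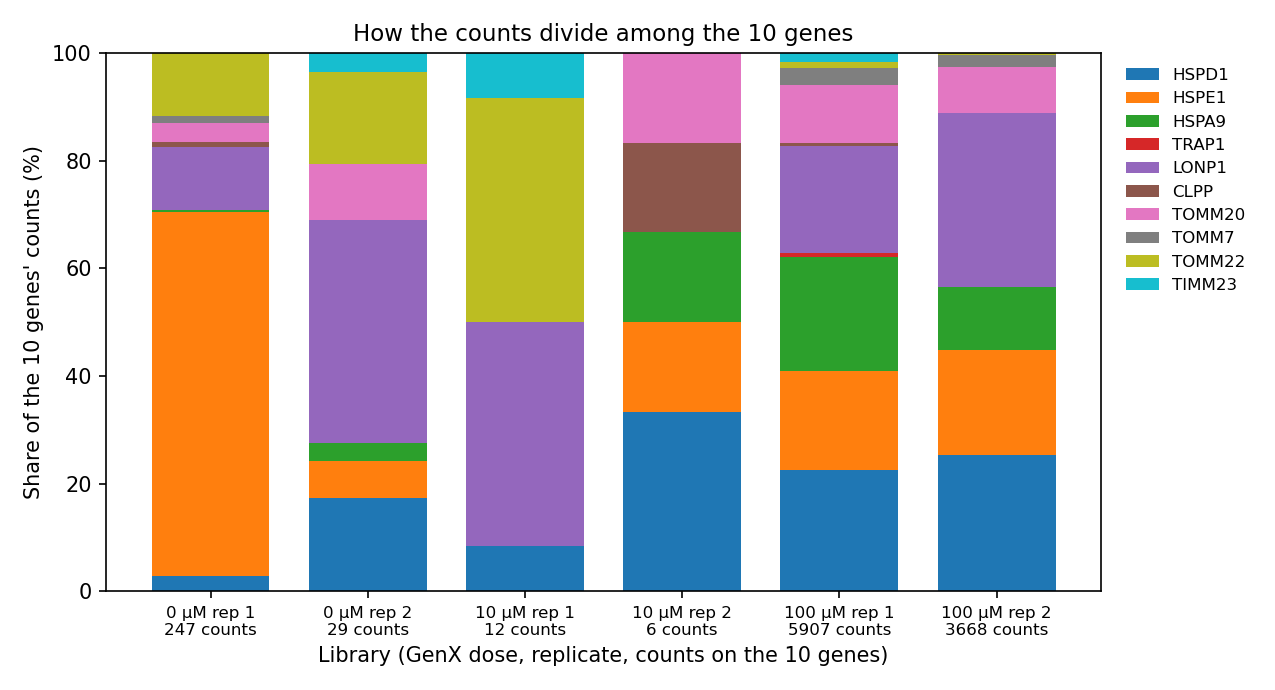
Share of the counts on the 10 genes taken by each gene, in percent, in each library from 0 to 100 µM GenX, with the number of counts under each bar. HSPE1 takes 67.6% in control 1, and 18.4% and 19.5% in the 100 µM libraries, where HSPD1, HSPA9 and LONP1 take most of the rest, and the 10 µM bars rest on 12 and 6 counts.

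The division of counts among the 10 genes differed between the 100 µM replicates, most in percentage points for LONP1 and HSPA9. LONP1 took 19.8% (95% exact binomial interval 18.8 to 20.9) in replicate 1 and 32.3% (30.8 to 33.8) in replicate 2, and HSPA9 took 21.2% (20.2 to 22.3) and 11.6% (10.6 to 12.7). HSPD1 took 22.5% (21.4 to 23.6) and 25.4% (23.98 to 26.8), and TOMM20 took 10.7% (9.94 to 11.5) and 8.42% (7.55 to 9.37), so their intervals did not overlap either. Those of HSPE1, at 18.4% (17.4 to 19.4) and 19.5% (18.2 to 20.8), did overlap. TOMM22 took 0.982% and 0.436%, against 11.7% in control 1. HSPE1 took 67.6% (61.4 to 73.4) in control 1.

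At 10 µM against control the counts left little to compare. Of the 10 genes, 6 were tested (HSPD1, HSPE1, HSPA9, LONP1, TOMM20 and TOMM22), since a gene had to reach 66.3 CPM in at least 2 libraries, and TRAP1, CLPP, TOMM7 and TIMM23 did not. HSPA9 and TOMM20 reached it only at 100 µM. TOMM22 reached it in 2 control libraries and 1 library with 10 µM, and in 0 at 100 µM. By quasi-likelihood testing in edgeR, with calls at an adjusted p under 0.05, 0 of the 6 passed, against 0.597% of the 3180 genes tested (0.22% higher, 0.377% lower). HSPE1 alone of the 6 had an unadjusted p under 0.05, as did 895 of all 3180 genes, and DESeq2's Wald test called 0 of the 6 and 17.4% of all genes. HSPE1 had a log2 fold change of -5.13 ± 2.19 (SE, n = 2 per group; adjusted p = 0.166). Without control 2 the value was -6.68 and passed (adjusted p = 0.000717 in edgeR, where 12.5% of genes passed), and without control 1 it was -1.27 and did not pass, where 12.5% did. The other 5 had log2 fold changes of -0.46 ± 1.61 for HSPD1, 0.57 ± 2.34 for HSPA9, -1.501 ± 1.64 for LONP1, -1.80 ± 1.94 for TOMM20 and -0.99 ± 1.56 for TOMM22, and the direction of HSPD1 turned to 0.02 with DESeq2 size factors. The median of all genes was -3.18, so these 5 lay above it and HSPE1 below it. LONP1 and TOMM20 were lower in CPM in both 10 µM libraries than in both controls, as were 35.8% of all genes. The other 4, HSPE1 among them, overlapped, while 10.3% of all genes were higher in both. With mtDNA counts left out of the denominator, this order did not hold. LONP1, at 204 nuclear CPM in 10 µM replicate 1, lay between the controls at 126 and 220.2. TOMM20, at 87.7 in 10 µM replicate 2, lay above both controls at 39.1 and 55.04.

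At their pooled 100 µM share, the 10 µM libraries would have held 16.5 and 7.67 counts of HSPD1, where 1 and 2 were counted, and 17.2 and 8.005 counts of LONP1, where 5 and 0 were counted. At the pooled control share they would have held 1.03 and 0.481 counts of HSPD1 and 3.53 and 1.64 of LONP1. For TRAP1, CLPP and TIMM23 both shares gave fewer than 1 count in each 10 µM library, so no difference of that size was detectable there.

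At 100 µM against control, edgeR called 0 of the 6 tested genes and 0% of all 3180 genes, of which 573 had an unadjusted p under 0.05. Among the 6, HSPA9 alone had an unadjusted p under 0.05. HSPA9 averaged 453 ± 189 CPM at 100 µM and 10.3 ± 8.68 CPM in control libraries (SD, n = 2 each), a log2 fold change of 5.15 ± 1.95 (SE, adjusted p = 0.225 in edgeR). HSPD1 averaged 658 ± 53.7 CPM at 100 µM and 55.6 ± 37.5 CPM in control libraries, a log2 fold change of 3.11 ± 1.51 (adjusted p = 0.303 in edgeR). DESeq2's Wald test called these 2 genes and 7.67% of all genes (HSPD1 2.69, adjusted p = 0.0396; HSPA9 4.76, adjusted p = 0.0220). HSPA9, like TOMM20, passed the filter only through its 100 µM libraries, so its test here was not independent of its level there.

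LONP1 averaged 716 ± 239 CPM at 100 µM and 159 ± 54.2 CPM in control libraries (log2 fold change 1.62 ± 1.52, adjusted p = 0.580 in edgeR). TOMM20 averaged 263 ± 45.8 CPM at 100 µM and 43.3 ± 8.42 CPM in control libraries (2.01 ± 1.49, adjusted p = 0.480 in edgeR). TOMM22 averaged 19.5 ± 10.7 CPM at 100 µM and 101 ± 27.1 CPM in control libraries (-3.06 ± 1.502, adjusted p = 0.310 in edgeR). It passed the filter only through control and 10 µM libraries, so its test here was not independent of its level there. HSPE1 averaged 521 ± 18.5 CPM at 100 µM and 363 ± 467 CPM in control libraries, with a log2 fold change of -0.34 ± 1.59 (adjusted p = 0.931 in edgeR) that turned to 0.53 with library sizes alone and to 4.23 without control 1. HSPD1, HSPA9, LONP1 and TOMM20 were higher in CPM in both 100 µM libraries than in both controls, as were 48.5% of all genes tested, and TOMM22 was lower in both, as were 10.1%. HSPE1 overlapped. An exact two-sided permutation test of 2 against 2 libraries could not give a p below 0.333.

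**Figure D3:**
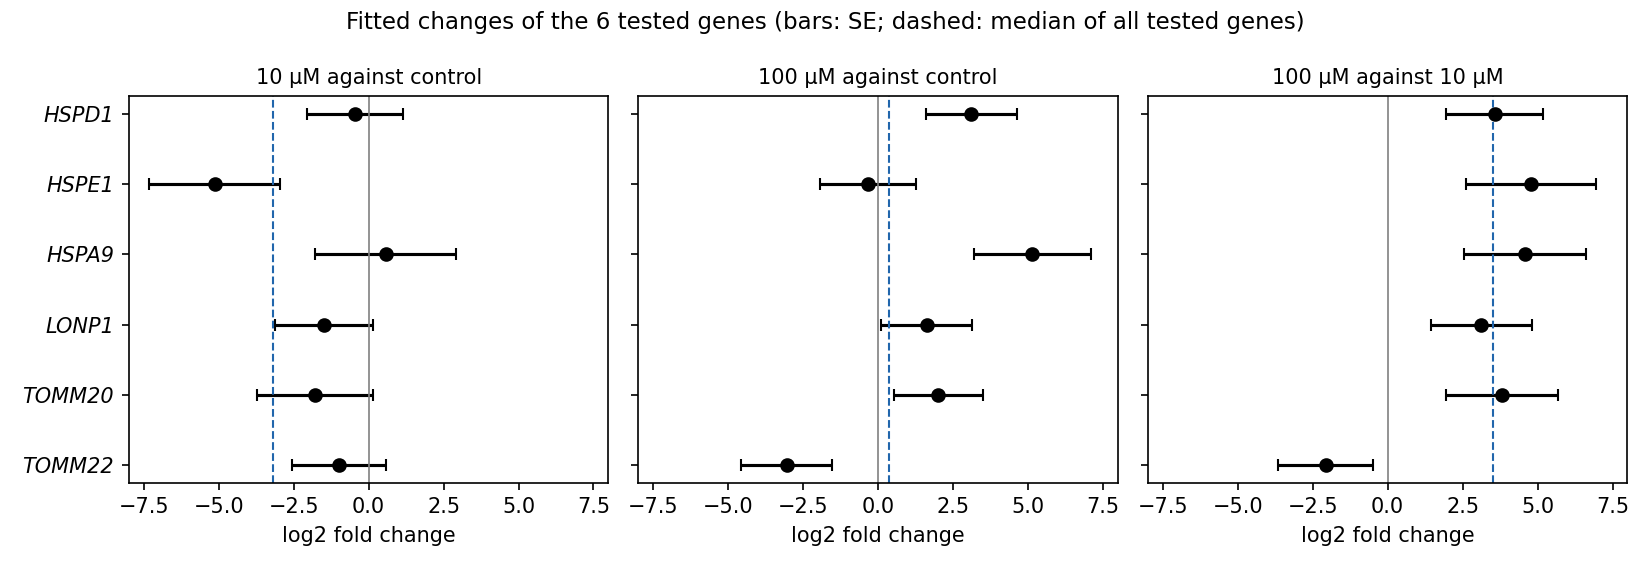
Fitted log2 fold changes of the 6 tested genes in 3 comparisons, points with SE bars from edgeR, with a dashed line at the median of all 3180 genes tested. At 100 µM against control HSPA9 (5.15) and HSPD1 (3.11) lie above the median of 0.35 and TOMM22 (-3.06) below it, and at 100 against 10 µM the 5 genes other than TOMM22 lie within 1 SE of the median of 3.52. HSPA9 and TOMM20 passed the filter only through 100 µM libraries, and TOMM22 only through control and 10 µM libraries.

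At 100 against 10 µM, edgeR called 0 of the 6 and 2.86% of all genes (0.755% higher, 2.11% lower). HSPA9 alone of the 6 had an unadjusted p under 0.05, as did 1150 of all 3180 genes, and DESeq2's Wald test called 0 of the 6 and 12% of all genes. HSPA9 and TOMM20 had passed the filter only through their 100 µM libraries, and TOMM22 only through control and 10 µM libraries. The log2 fold changes were 3.57 ± 1.62 for HSPD1 (adjusted p = 0.138), 4.79 ± 2.17 for HSPE1 (0.138), 4.58 ± 2.02 for HSPA9 (0.135), 3.13 ± 1.68 for LONP1 (0.181) and 3.81 ± 1.87 for TOMM20 (0.154), each within 1 SE of the median of 3.52 over all genes (edgeR). TOMM22 had -2.07 ± 1.58 (adjusted p = 0.320), and 6.88 without 10 µM replicate 1, where the remaining library held 0 counts. All of the 6 but TOMM22 were higher in CPM in both 100 µM libraries than in both 10 µM libraries, as were 70.8% of all genes, and 7.3% were lower in both. Without control 1, HSPD1, HSPE1, HSPA9 and LONP1 passed in edgeR (4.28, 5.50, 5.30 and 3.82, adjusted p between 0.0128 and 0.0284), where 36% of all genes passed. Without control 2 the same 4 genes passed (4.40, 5.64, 5.41 and 3.93, adjusted p between 0.00182 and 0.01198 in edgeR), where 18.5% passed.

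The other genes of import, processing and mitochondrial quality control came from 7 lists with 52 genes. Of these, 29 and 16 had a count in control libraries, 5 and 9 with 10 µM, and 39 and 38 with 100 µM. They summed to 1998 and 6991 nuclear CPM in control libraries, 326 and 1490.4 with 10 µM, and 2167 and 2048 at 100 µM, so the 100 µM libraries lay between the controls, unlike for the 10 genes. Of the 52, 10 were tested and 0 passed in either direction in any of the 3 comparisons in edgeR. Unadjusted p-values under 0.05 numbered 3 at 10 µM against control, 0 at 100 µM against control and 2 at 100 against 10 µM. Of all 3180 genes, 895, 573 and 1150 had such a p-value. DESeq2's Wald test called 2, 0 and 1 of the 10, and 17.4%, 7.67% and 12% of all genes. TIMM44, among the 2 with an unadjusted p under 0.05 at 100 against 10 µM in edgeR, passed the filter only through its 100 µM libraries. In control 2, PHB2, a prohibitin of the inner membrane, held 111 counts, against 4 in control 1, and TIMM17A, a partner of TIMM23 named here after its values were seen, held 103 counts, against 0.

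ROMO1, a small protein of the inner membrane, had 95 and 70 counts in control libraries, 0 with 10 µM, and 969 and 731 at 100 µM (100 µM against control log2 fold change -1.11, adjusted p = 0.668 in edgeR). TOMM34, a cytosolic helper of import, had 19 and 1 counts in control libraries, 0 with 10 µM, and 301 and 88 at 100 µM (0.24, adjusted p = 0.941 in edgeR). TIMM13, a small chaperone between the membranes, had 69 and 4 counts in control libraries, 1 and 0 with 10 µM and 132 and 106 with 100 µM (-2.12, adjusted p = 0.473 in edgeR). SAMM50, which inserts barrel proteins into the outer membrane, had 0 and 2 counts in control libraries, 0 with 10 µM and 151 and 119 with 100 µM (2.35, adjusted p = 0.489 in edgeR). It had passed the filter only through its 100 µM libraries. PMPCB, a subunit of the protease that removes presequences, was not tested and had 100 and 1 counts in control libraries, 1 and 1 with 10 µM, and 113 and 4 at 100 µM. SPG7, a subunit of an inner membrane protease, had 37 and 33 counts in control libraries, 0 and 2 with 10 µM and 326 and 77 with 100 µM (-2.19, adjusted p = 0.487 in edgeR), and PHB2 had 138 and 94 at 100 µM (-4.09, adjusted p = 0.302 in edgeR).

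Cytosolic chaperones were a group of related function outside mitochondria. The 19 listed genes summed to 5004 and 4642 nuclear CPM in control libraries, 1551 and 1666 with 10 µM, and 7797 and 7523 at 100 µM. Of counts on both groups together, the 10 mitochondrial genes took 17.7% (95% exact binomial interval 15.7 to 19.8) and 10.3% (7.00 to 14.4) in control libraries, 24.0% (13.1 to 38.2) and 24.0% (9.36 to 45.1) with 10 µM, and 26.8% (26.3 to 27.4) and 27.4% (26.6 to 28.1) at 100 µM. The share was thus higher in both 100 µM libraries than in both controls, and at 10 µM its intervals reached into the range of the other groups. Of 17 cytosolic chaperone genes tested, 0 passed in edgeR against control at either dose, with 3 at an unadjusted p under 0.05 at 10 µM and 4 at 100 µM. Of all 3180 genes, 895 and 573 had such a p-value. Of the 4 genes at 100 µM, CCT5, CCT8 and STIP1 reached the filter's 66.3 CPM only in 100 µM libraries. Their tests were therefore not independent of their level there. At 100 against 10 µM, where 0.755% of all genes were called higher, 1 gene, HSP90AB1, the constitutive cytosolic Hsp90, was called higher (5.10 ± 1.12, adjusted p = 0.0408 in edgeR), with 5078 and 3420 counts at 100 µM and 2 in each 10 µM library. DESeq2's Wald test called it too in that comparison (4.12), called it lower at 10 µM against control (-4.77, adjusted p = 3.0e-05), and called CCT8, a subunit of the cytosolic chaperonin, higher at 100 µM against control (4.75, adjusted p = 0.0494). These were its only calls among the 17, in comparisons where it called 12%, 17.4% and 7.67% of all genes. CCT8 had passed the filter only through its 100 µM libraries, so its call was not independent of its level there. The median of the 17 at 100 µM against control was 0.57, and that of all genes 0.35.

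**Figure D4:**
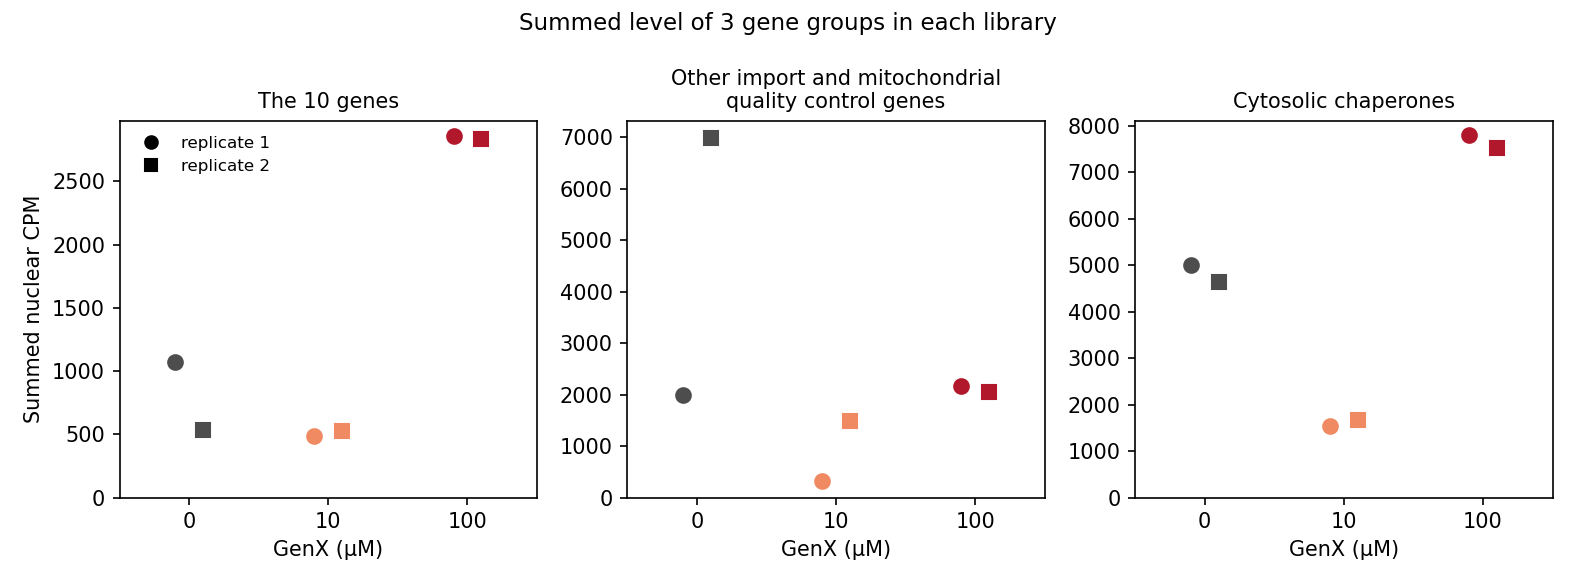
Summed nuclear CPM of the 10 genes, of 52 other genes of import and mitochondrial quality control, and of 19 cytosolic chaperones, against GenX dose, with a circle for replicate 1 and a square for replicate 2. The 10 genes reach 2861 and 2835 at 100 µM, above both controls, while for the 52 other genes control 2 is highest at 6991.

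Among regulators of the mitochondrial unfolded protein response, ATF4, a transcription factor of stress responses, had 14 and 36 counts in control libraries, 1 and 0 with 10 µM, and 2522 and 2011 at 100 µM (100 µM against control log2 fold change 1.68 ± 1.38, adjusted p = 0.527 in edgeR). ATF5, the factor most closely tied to this response and named here after its values were seen, had 0 in control libraries and at 10 µM and 29 and 56 counts at 100 µM. Its 100 µM levels were 14.0 and 43.3 nuclear CPM. The limits of 3 counts were 13.03 and 55.04 in control libraries and 122 and 263 with 10 µM. Such levels were therefore not detectable at 10 µM or in control 2. Of the 4 tested genes of this list 0 passed in edgeR in any comparison, with 1 at an unadjusted p under 0.05 at 10 µM against control, 0 at 100 µM against control and 3 at 100 against 10 µM. Of all 3180 genes, 895, 573 and 1150 had such a p-value. Of the 3 genes at 100 against 10 µM, DDIT3 and SESN2 reached the filter's 66.3 CPM only in 100 µM libraries. Their tests were therefore not independent of their level there. DESeq2's Wald test called HSF1, the heat shock factor, at 10 µM against control (3.74, adjusted p = 0.0297), where it called 17.4% of all genes. HSF1 had 7 and 0 counts in control libraries and 5 and 11 with 10 µM (adjusted p = 0.212 in edgeR). DESeq2 also called ATF4 at 100 against 10 µM (5.25, adjusted p = 0.0450), where it called 12% of all genes. By level, LONP1 had the highest mean CPM of the 10 genes, and over the 6 libraries the 2 of 6886 nuclear protein-coding genes most like it in log2 CPM, after each gene's mean over the libraries was subtracted, were HDLBP (root-mean-square difference 0.44 log2 units) and CAST (0.57). Among the other genes of the 10 with at least 50 counts over all libraries, TOMM7 was nearest on this centred measure, at 1.95.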

How the data were processed

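The authors deposited raw counts per gene, 1 table for each library, with exon lengths in bases. The submitters' processing notes name FastQC, STAR, featureCounts, DESeq2 and GRCh38. For the annotation release, the strand setting and overlapping reads, the sources used here give nothing. Libraries were stranded and ribosomal RNA was depleted, per the labels' protocols.

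Symbols came from GENCODE v29 and promoter windows from RefSeq. The 10 genes and all lists were chosen with earlier results of these data known. Counts were tested with edgeR 4.0.16 (R 4.3.3), using filterByExpr, TMM factors and robust quasi-likelihood models fitted to the 6 libraries together, two-sided, with Benjamini-Hochberg adjustment over all 3180 genes kept and a threshold of 0.05; the code was checked on simulated counts. SEs were the log2 fold change divided by the root of the F statistic. DESeq2 1.42.0 was an alternative. All 10 genes are described, and of each other list the genes that passed, at most 3, or else the one with the highest mean CPM. A further gene among those most like LONP1 is not reported here. Replicates differed beyond sampling noise (chi-square per degree of freedom 39.4 for control, 12.9 for 10 µM, 35.2 for 100 µM).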

Additional observations from a re-analysis of the deposited data

How the results depend on the processing

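Of 219 alternative values for single genes among the 10, 197 kept their direction and side of the threshold, 11 passed only under the alternative and 11 changed sign. At 10 µM against control, genes past the threshold numbered 19, and 7 with library sizes alone, 1 with nuclear genes only, 7 with no filter, 206 with only the 4 libraries compared and 554 in DESeq2's Wald test. At 100 µM against control they numbered 0, and 4 with DESeq2 size factors and 244 in DESeq2's Wald test, which called 2 of the 10 genes. At 100 against 10 µM they numbered 91, and 0 with nuclear genes only, 3 with no filter, 258 with only the 4 libraries and 383 in DESeq2's Wald test. Leaving out 1 library at a time gave 4 to 861, 0 to 204 and 16 to 1272 genes in these comparisons, and 0 to 1, 0 and 0 to 4 of the 10 genes; a lone library was assumed to vary like the others. The labels do not say whether replicate numbers pair libraries across doses. Deviations from the dose means correlated at 0.000331, 0.00315 and -0.0222. With 2 libraries per dose of very unequal depth, these values cannot show whether equal numbers share a batch. A replicate block gave 75, 22 and 136 genes and 0 of the 10. With only the 4 libraries at 10 µM against control, none of the 10 genes passed the filter, so no value was obtained. Higher and lower calls numbered 7 and 12 at 10 µM against control (8 and 7 under the size factors of DESeq2, 0 and 7 unscaled but for library size) and 24 and 67 at 100 against 10 µM (6 and 73, 42 and 86). The median of all genes was -3.18, 0.35 and 3.52, -2.66, -0.05 and 2.54 under the size factors of DESeq2, and -2.64, 1.02 and 3.66 unscaled but for library size.

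Changes of sign were as follows. HSPD1 at 10 µM against control was 0.0189 with DESeq2 size factors and 0.0707 in DESeq2's Wald test. HSPA9 there ranged from -5.89 to 1.30 over the libraries left out. HSPE1 at 100 µM against control was 0.53 with library sizes alone, 0.20 with no filter and 0.19 with the replicate block, and ranged from -1.04 to 4.23 over the libraries left out. TOMM22 at 100 against 10 µM ranged from -2.13 to 6.88. The summed level averaged 2749.6 at 100 µM and 239.97 at 10 µM over counts on all genes, 3315 at 100 µM, 609.9 at 10 µM and 1611 in controls with overlapping genes and copies added, and 2308 at 100 µM and 464 at 10 µM without HSPE1, an alternative chosen after seeing the data. Its single libraries ranged from 2835 to 2861 at 100 µM, 489.7 to 526 at 10 µM and 532 to 1073 in controls. The cause was not tested for any of these. Depth limited 10 µM most, where the 10 genes held 12 and 6 counts.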
